A study of Saccharomyces cerevisiae with 4 samples.

Results

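The nuclear genes of the yeast respiratory chain and ATP synthase were followed in a Saccharomyces cerevisiae strain with a minimal set of glycolytic genes and in its reference strain. The set was chosen by systematic name and holds 39 genes. It covers 3 NADH dehydrogenases, the 4 core subunits of succinate dehydrogenase, 9 subunits of the cytochrome bc1 complex, both cytochromes c, 9 subunits of cytochrome c oxidase and 12 of ATP synthase. Of these, 38 had a gene model among the 5472 in the deposited table, all 38 were tested by the authors, and each had exactly 1 model. QCR9, a small subunit of the bc1 complex, had no model under its name and was not analysed here.

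The respiratory chain of S. cerevisiae passes electrons from NADH and succinate to ubiquinone, then through the cytochrome bc1 complex and cytochrome c to cytochrome c oxidase, which reduces oxygen. This yeast has no proton-pumping complex I. Single-polypeptide NADH dehydrogenases take its place, one facing the mitochondrial matrix and others facing the cytosol. The bc1 complex and the oxidase pump protons out of the matrix, and ATP synthase uses the returning protons to make ATP. Most of the subunit genes are repressed on glucose and are activated by the Hap2/3/4/5 complex when respiration is needed. A fast glycolysis on excess glucose leaves most ATP formation to fermentation.

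The reference strain was CEN.PK113-7D, with the genotype MATa MAL2-8c SUC2. The minimal glycolysis strain, IMX372, shares these alleles and carries ura3-52, his3-1 and a mutant leu2 allele. Of its 13 deleted glycolytic and fermentative genes, GLK1, HXK1 and TDH1 were replaced by SpHis5, KlLEU2 and KlURA3, and ADH2, ADH4, ADH5, ENO1, GPM2, GPM3, PDC5, PDC6, PYK2 and TDH2 are listed as deleted with no insert. Effects of the deletions and of the marker alleles cannot be told apart. Both strains were cultured in aerated batch bioreactors at 30 °C and pH 5 on a synthetic medium that held glucose at 20 g/L. RNA came from mid-exponential cells, with 2 libraries per strain. The genotype label lists no change in a gene of respiration.

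The deposited table gives 1 FPKM (fragments scaled to the length of the gene model and to the reads of the library) per strain, pooled by the authors over both libraries. No SD or n therefore stands beside any level. FPKM is a relative level, so a change in total RNA per cell would not show in it. The depth behind each value is unknown. Each data set has at least 1 Gb of 51-base reads, per the labels. The only measure of error is the authors' Cuffdiff p-value and the q-value adjusted over all models, and the labels do not state that the libraries of a strain came from separate cultures. As a check of the strain labels, the deleted GPM3 went from an FPKM of 57.7 in the reference to a listed 0 in the minimal glycolysis strain. For the other 10 deleted genes with a model, the table lists 0 in either strain and no test. The sample names in the deposited table carry the word masked for both strains. These zeros were not read as absent expression in the reference strain. A ratio below is the FPKM of the minimal glycolysis strain over that of the reference, on the log2 scale with nothing added.

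None of the 38 genes was called different at a q of at most 0.05 in the authors' deposited table. Over all 5329 genes with a ratio, 0.751% were called. None changed by at least 2-fold, which 0.488% of all genes did. At an unadjusted p of at most 0.05 in the same table there was 1 of 38 (NDE1), or 2.63%, against 3.13% of all genes. The log2 ratios of the 38 genes ran from -0.33 to 0.15 with a median of -0.02, and the median over all genes was 0.01. Of all genes, 80.2% had a ratio inside that range. An absolute log2 ratio of at most 0.1 was seen for 23 of the 38, or 60.5%, against 51.1% of all genes. The smallest change that was called anywhere was 1.57-fold, larger than any difference among these genes, so the test did not show that their levels were equal. Of the 38 genes, 22 had a ratio below 0, or 57.9%, against 47.0% of all genes. The order of levels was nearly the same in both strains, with a Spearman correlation of 0.997 across the 38 genes. These genes are not independent replicates and share the pooled libraries. Their reference FPKM ran from 2.81 to 8640, far wider than their strain ratios, so a correlation near 1 says little about the set.

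**Figure D1:**
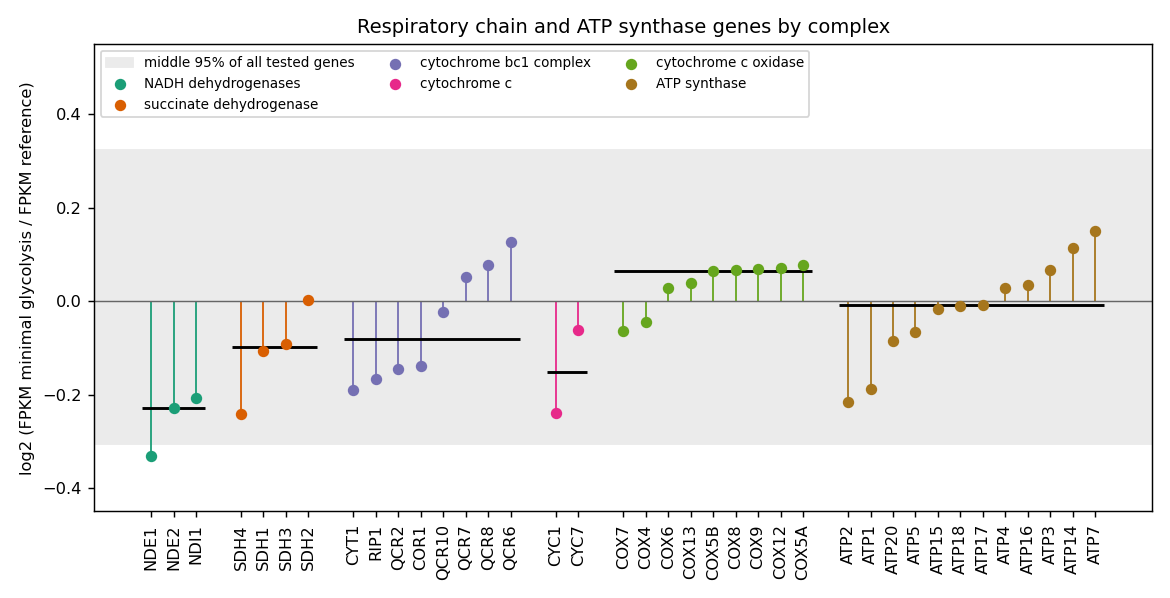
Log2 ratio of the FPKM in minimal glycolysis over reference for each of the 38 genes, grouped by complex along the path of electrons. Points are genes, black bars the median of a complex, and the grey band holds the middle 95% of all tested genes, from -0.30 to 0.32. NDE1 at -0.33 is the one gene outside the band.

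The NADH dehydrogenases, entry points of the chain, had the lowest median ratio of the 6 groups. NDE1, the main NADH dehydrogenase facing the cytosol (YMR145C, chromosome 13, 549305 to 550987 on the CEN.PK113-7D assembly), stood at an FPKM of 412 in the reference and 327 in the minimal glycolysis strain. Its log2 ratio of -0.33 was the lowest of the set, and 1.91% of all genes had a lower one. In the authors' deposited table its unadjusted p was 0.0467 and its q 0.998, so it was not called. NDI1, the enzyme facing the matrix (YML120C, chromosome 13, 22781 to 24322), stood at an FPKM of 156 in the reference and 135 in the minimal glycolysis strain, a log2 ratio of -0.21. NDE2, the second enzyme facing the cytosol (YDL085W, chromosome 4, 302118 to 303755), stood at 2.81 and 2.39, a log2 ratio of -0.23, and was the one gene of the set below an FPKM of 10 in both strains. All 3 ratios lay below 0, with a median of -0.23 that is the value of NDE2. With 5 FPKM added in each strain, NDE2 moved to -0.08 and the median to -0.20. The summed FPKM of the 3 genes was 571 in the reference and 465 in the minimal glycolysis strain.

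Succinate dehydrogenase, which also serves the TCA cycle, had 4 genes with a median log2 ratio of -0.10. SDH4, a membrane anchor subunit (YDR178W, chromosome 4, 816984 to 817529), stood at an FPKM of 236 in the reference and 200 in the minimal glycolysis strain, a log2 ratio of -0.24 with an unadjusted p of 0.144 in the authors' deposited table. The other anchor, SDH3 (YKL141W, chromosome 11, 179646 to 180242), stood at 617 and 579, a log2 ratio of -0.09. SDH1, the flavoprotein that oxidizes succinate, stood at 82.3 and 76.4, a log2 ratio of -0.11. SDH2, the iron-sulfur subunit, was level between the strains at 408 and 409, with a log2 ratio of 0.00. Between the 4 subunits, FPKM differed 7.49-fold in the reference and 7.57-fold in the minimal glycolysis strain. SDH3 was highest and SDH1 lowest in both. Their models have 597 and 1923 bp, and FPKM moved with length over the set, so transcript amounts were not compared between subunits.

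The genes of the cytochrome bc1 complex were grouped by kind of subunit. This grouping follows known roles and was chosen after the values were seen. CYT1, the cytochrome c1 protein (YOR065W, chromosome 15, 447570 to 448499), stood at an FPKM of 559 in the reference and 490 in the minimal glycolysis strain, a log2 ratio of -0.19. RIP1, the Rieske iron-sulfur protein (YEL024W, chromosome 5, 105350 to 105997), stood at 843 and 752, a log2 ratio of -0.17. The core proteins COR1 and QCR2 had log2 ratios of -0.14 and -0.15, from an FPKM of 466 to 423 and of 511 to 462. All 4 of these ratios lay below 0. Of the 4 small subunits, QCR6, QCR7 and QCR8 lay above 0, at 0.13, 0.05 and 0.08, and QCR10 lay at -0.02. The models of CYT1, RIP1, COR1 and QCR2 have 648 to 1374 bp and those of the small subunits 285 to 444 bp. Kind and length therefore cannot be told apart. With both strains rescaled to the same summed FPKM over all genes, 6 of the 8 bc1 genes lay below 0, against 5 before. Rescaling shifted the ratio of every gene by -0.06, and the share of all genes then below 0 was not computed. The smaller subunits had the higher FPKM, with QCR8 at 3267 in the reference and 3447 in the minimal glycolysis strain. The smallest unadjusted p in this complex was 0.239 in the authors' deposited table, for CYT1. The model of QCR10 was 63 bases longer than its coding sequence in the R64 reference annotation, which gives it in 2 parts.

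Cytochrome c, the mobile carrier between these complexes, is encoded by 2 genes. CYC1, the main form in aerobic cells (YJR048W, chromosome 10, 508892 to 509221), stood at an FPKM of 4197 in the reference and 3553 in the minimal glycolysis strain. Its log2 ratio of -0.24 was the third lowest of the set, with an unadjusted p of 0.147 in the authors' deposited table. CYC7, the form favoured when oxygen is short (YEL039C, chromosome 5, 77717 to 78058), stood at 22.8 and 21.9, a log2 ratio of -0.06.

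Cytochrome c oxidase was the complex with the highest median, 0.06 over 9 genes, with 7 above 0 and 2 below. Its nuclear subunits surround a catalytic core that the mitochondrial genome encodes. COX5A, the aerobic form of subunit V (YNL052W, chromosome 14, 525711 to 526172), stood at an FPKM of 1199 in the reference and 1265 in the minimal glycolysis strain, a log2 ratio of 0.08. COX8, COX9 and COX12, small structural subunits, had log2 ratios of 0.07 each, from 3815 to 3995, from 4885 to 5126 and from 2615 to 2747. COX6 and COX13 lay at 0.03 and 0.04. The ratios below 0 were those of COX4 at -0.05 and of COX7 at -0.06, the latter with the highest FPKM of the complex, 6852 in the reference and 6551 in the minimal glycolysis strain. All 9 ratios lay within 0.1 of 0, and the smallest unadjusted p was 0.632 in the authors' deposited table. The summed FPKM of the complex was 23134 in the reference and 23487 in the minimal glycolysis strain, a log2 ratio of 0.02. With both strains rescaled to the same summed FPKM over all genes, 5 of the 9 lay above 0, the median was 0.01 and the log2 ratio of the sums was -0.03. Rescaling lowered the ratio of every gene, and the share of all genes then above 0 was not computed.

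In ATP synthase, 7 of the 12 genes lay below 0 and 5 above, with a median log2 ratio of -0.01. The catalytic beta subunit ATP2 (YJR121W, chromosome 10, 630157 to 631692) stood at an FPKM of 1111 in the reference and 957 in the minimal glycolysis strain, a log2 ratio of -0.22. Its partner in the catalytic hexamer, the alpha subunit ATP1 (YBL099W, chromosome 2, 31636 to 33273), stood at 583 and 512, a log2 ratio of -0.19. These were the lowest ratios of the enzyme, and the authors' deposited table gives them an unadjusted p of 0.199 and 0.258. Their models, of 1536 and 1638 bp, are also its longest, and the next is ATP3 with 936 bp. Role and length therefore cannot be told apart here either. The grouping by part of the enzyme follows known roles. The rotor subunits of the same F1 part, ATP3 (gamma), ATP15 (epsilon) and ATP16 (delta), had log2 ratios of 0.07, -0.02 and 0.04. ATP7 and ATP14 of the peripheral stalk, which holds F1 still against the membrane part, had the highest ratios of the enzyme at 0.15 and 0.11. ATP7 (YKL016C, chromosome 11, 407459 to 407983) went from an FPKM of 1075 to 1192, the highest log2 ratio of the set. The other stalk subunits ATP4 and ATP5, the latter also known as the oligomycin sensitivity-conferring protein, lay at 0.03 and -0.07. The membrane-bound ATP17, ATP18 and ATP20 lay at -0.01, -0.01 and -0.09. ATP15 had the highest FPKM of all 38 genes, 8640 in the reference and 8536 in the minimal glycolysis strain.

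**Figure D2:**
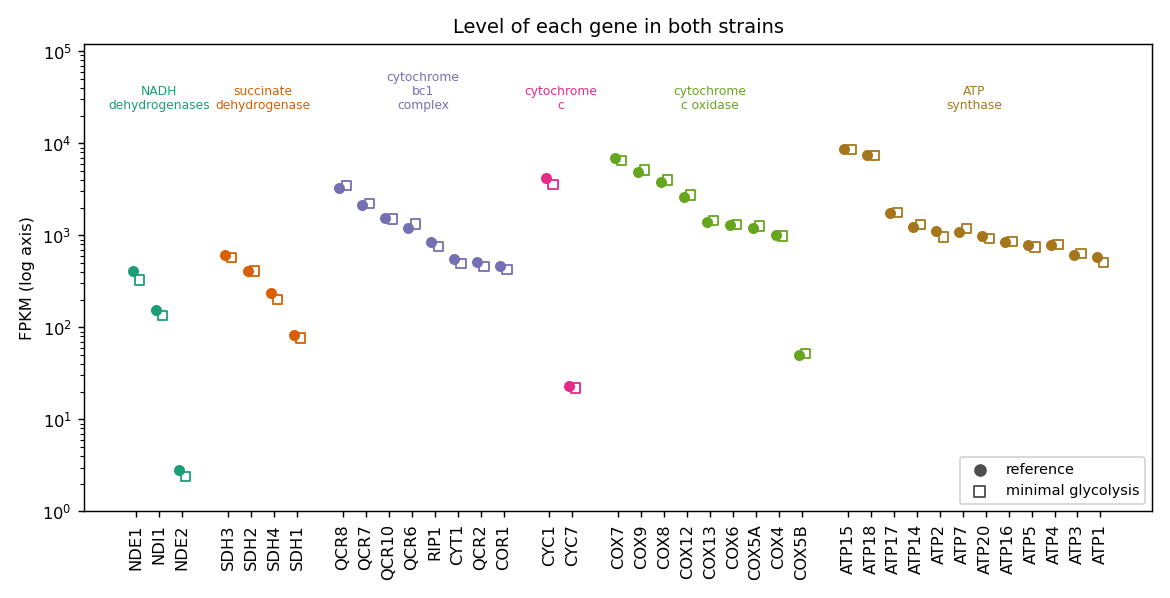
FPKM of each gene on a log axis, filled circles for the reference and open squares for the minimal glycolysis strain, each 1 pooled value. Within each complex the genes are ordered by their level in the reference. The paired symbols nearly coincide, while levels within the set run from 2.81 for NDE2 to 8640 for ATP15 in the reference.

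In 3 pairs of alternative forms, the main gene outweighed the other to a like degree in both strains. CYC7 stood at 0.544% of the CYC1 level in the reference and 0.616% in the minimal glycolysis strain, a log2 change of 0.18 in their ratio. COX5B, the form of subunit V used when oxygen is short (YIL111W, chromosome 9, 155326 to 155670), stood at an FPKM of 49.5 and 51.8. That is 4.13% of COX5A in the reference and 4.10% in the minimal glycolysis strain, a log2 change of -0.01. The COX5B model was 111 bases shorter than the coding sequence in R64, so its level rests on part of the gene. NDE2 stood at 0.681% of NDE1 in the reference and 0.731% in the minimal glycolysis strain, a log2 change of 0.10. No test of these changes is possible with 1 value per strain.

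The ratio moved with the length of the gene model over the set and over the whole table, but to different degrees within the complexes. All 7 genes of 1200 bp or more, which are NDE1, NDE2, NDI1, ATP1, ATP2, COR1 and SDH1, lay below 0, with a median log2 ratio of -0.21. Shorter genes could lie as low, SDH4 with 546 bp and CYC1 with 330 bp at -0.24 each, and the longest, SDH1 with 1923 bp, lay at -0.11. Of the 2792 genes in that length class over the table, 58.8% lay below 0, with a median of -0.03. In the class of 600 to under 1200 bp, 4 of 7 members lay below 0 with a median of -0.07, against a median of 0.05 over 1735 genes. From 300 to under 600 bp, 7 of 16 lay below 0 with a median of 0.03, against 0.08 over 662 genes, and under 300 bp 4 of 8 lay below 0 with a median of 0.03, against 0.07 over 140 genes. Members' medians were thus below those of all genes in each class. Across genes, the Spearman correlation of the log2 ratio with length was -0.528 over the 38 members and -0.337 over all 5329 genes. Within complexes it was -0.619 over the 8 bc1 genes, -0.182 over the 12 ATP synthase genes and -0.10 over the 9 oxidase genes. These genes share the same pooled libraries, and the part that length plays in the ratios was not tested.

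The fitted dependence on level and length was subtracted to see what it leaves. The median over the set was then -0.06, with 28 of 38 below 0, against 48.5% of all genes. Over the 38 members the Spearman correlation of the remaining log2 ratio with length was still -0.442, so most of the relation with length in the set was left after the fit. By complex, the medians were -0.21 for the NADH dehydrogenases, -0.12 for succinate dehydrogenase, -0.11 for the bc1 complex, -0.22 for cytochrome c, -0.02 for the oxidase and -0.04 for ATP synthase. The oxidase median passed from above to below 0, and cytochrome c had the lowest median. SDH4, NDE1 and CYC1 were then the lowest genes, at -0.32, -0.32 and -0.29.

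**Figure D3:**
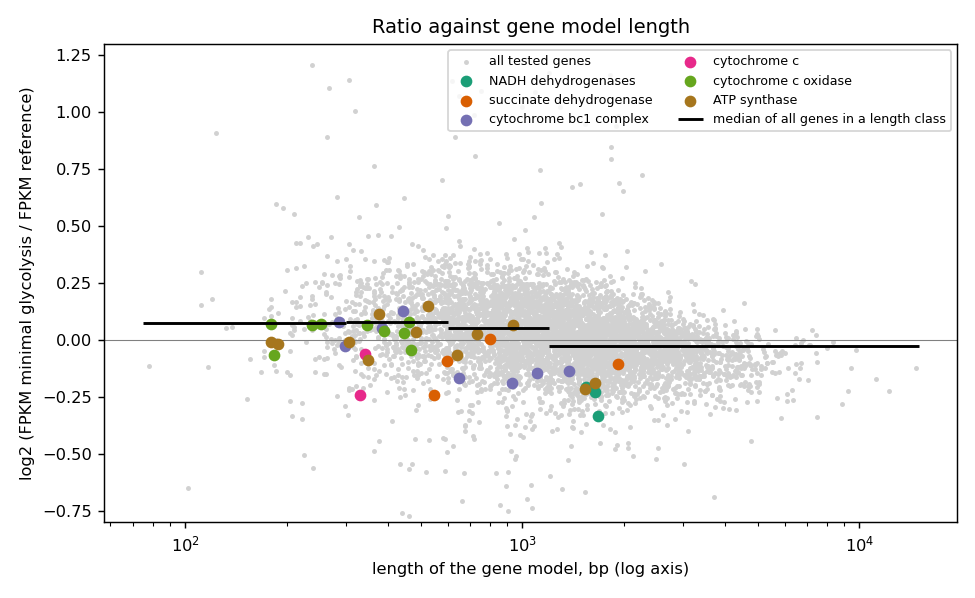
Log2 ratio of minimal glycolysis over reference against the length of the gene model on a log axis. Grey points are all tested genes, coloured points the members by complex, and black lines the median of all genes in 4 length classes, while 17 genes lie outside the plotted range. Members of 1200 bp or more all lie below 0.

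Levels of short genes need care, since FPKM itself moved with length. Within the set, the Spearman correlation of the reference FPKM with length was -0.779 over 38 genes, and over all genes it was -0.511. It was -0.976 over the 8 bc1 genes, -0.817 over the 9 oxidase genes and -0.804 over the 12 ATP synthase genes. Between the subunits of a complex, the reference FPKM ranged 7.01-fold in the bc1 complex and 14.8-fold in ATP synthase. Some genes have several models in the table. For 9 genes elsewhere in it, the authors list both a model under 300 bp and one of at least 600 bp under 1 name. The short model had the higher reference FPKM in 8 of the 9, with a median ratio of 4.24. HAP1, for example, had an FPKM of 374 on a model of 183 bp and 15.9 on one of 4248 bp. Shorter models of at least 300 bp were not always the higher, as HEM1 had a reference FPKM of 58.9 on a model of 552 bp and 93.0 on one of 879 bp. The 2 models of each of these genes cover different stretches of its locus, so length cannot be told apart from uneven coverage or separate transcripts. The high FPKM of ATP15, ATP18, COX7 and COX9, whose models have 189, 180, 183 and 180 bp, was not read as more messenger RNA than for longer subunits. The strain ratio of a gene compares 1 model with itself.

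The set stood high in the transcriptome, also against genes of like length. The median reference FPKM was 997 over the 38 genes and 63.1 over all genes. In the class of 1200 bp or more it was 412 for members and 39.9 for all genes and in the class of 300 to under 600 bp 1137 and 206. The lowest members were NDE2, CYC7, COX5B and SDH1. NDE2 was above 1.24% of all genes, CYC7 above 19.0% and COX5B above 42.0%.

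Related genes outside the set were described by 12 lists of nuclear genes, covering assembly, regulation, cofactors and transport. Of their 101 genes, all had a ratio and none was called, where 0.751% of all tested genes were. Below 0 lay 57 of them, or 56.4%, against 47.0% of all genes, with a median of -0.02. An unadjusted p of at most 0.05 in the authors' deposited table was seen for 2 of them, and for 3.13% of all genes. SDH6, an assembly factor of succinate dehydrogenase (chromosome 4, 1232315 to 1232554), stood at an FPKM of 164 in the reference and 111 in the minimal glycolysis strain, a log2 ratio of -0.56 with p = 0.0121 and q = 0.858 in the authors' deposited table. COX14, which couples synthesis of the oxidase subunit Cox1 to assembly (chromosome 13, 9060 to 9272), went from an FPKM of 1544 to 2074, a log2 ratio of 0.43 with p = 0.0109 and q = 0.801 in the authors' deposited table. Both models are short, at 240 and 213 bp.

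**Figure D4:**
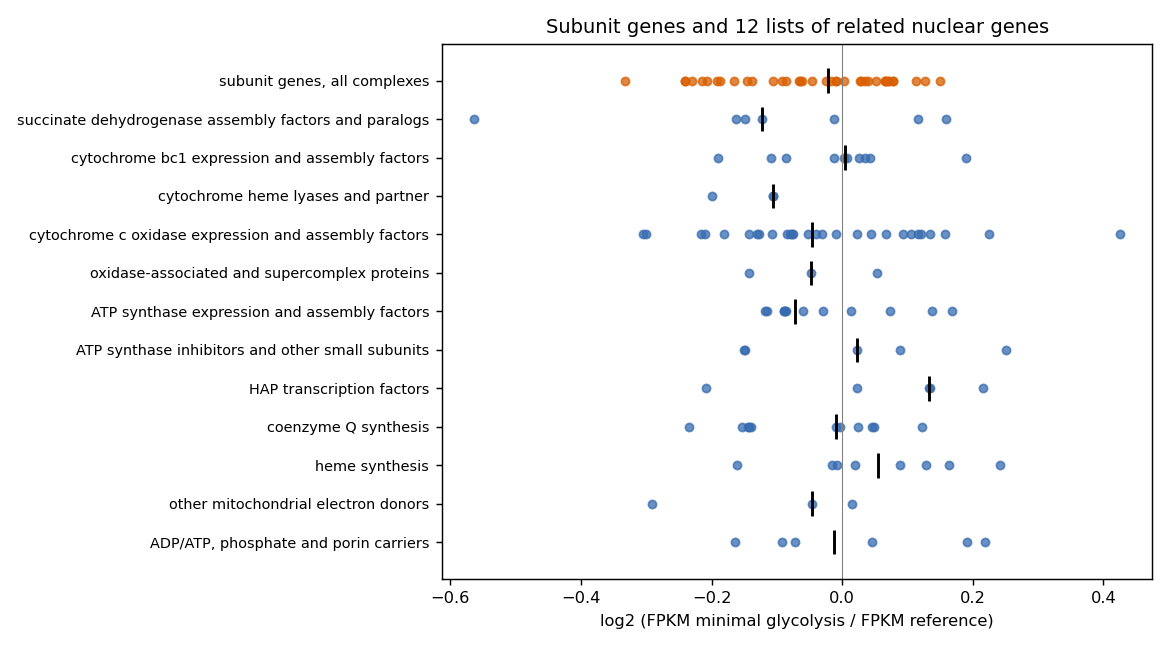
Log2 ratio of minimal glycolysis over reference for the 38 subunit genes (orange) and the genes of 12 lists of related nuclear genes (blue), with a black bar at the median of each. SDH6 at -0.56 and COX14 at 0.43 lie farthest from 0, and neither was called.

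Among the assembly lists, that of succinate dehydrogenase, with its paralogs, had 7 genes with a median log2 ratio of -0.12, where SDH8 lay at -0.16 and SHH4 at 0.16. The bc1 list had a median of 0.01 over 10 genes, with BCS1, which inserts the Rieske protein, at -0.19, CBS1, a translational activator of cytochrome b, at 0.19 and CBP6 at -0.11. The oxidase list had a median of -0.05 over 28 genes, with COX15, an enzyme of heme A synthesis, at -0.30 and PET111, a translational activator of Cox2, at -0.30. PET111 lies 499 bases from COX7 on chromosome 13. The ATP synthase list had a median of -0.07 over 12 genes, with ATP23 at 0.17, FMC1 at 0.14 and ATP22 at -0.12. The heme lyases CYC3 and CYT2, which attach heme to cytochromes c and c1, and their partner CYC2 lay at -0.20, -0.11 and -0.11. CYT2 rests on its longer model of 408 bp, and its shorter one of 162 bp lay at 0.19. The oxidase-associated proteins COX26, RCF1 and RCF2 lay at -0.14, 0.05 and -0.05. INH1 and STF1, inhibitors of ATP synthase when the membrane potential is lost, lay at -0.15 each and STF2 at 0.25, in a list of 5 with a median of 0.02.

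Genes of regulation and of cofactor supply were not called either. HAP4, the regulated activating subunit of the Hap complex (chromosome 11, 232195 to 233859), stood at an FPKM of 103 in the reference and 89.3 in the minimal glycolysis strain. This is a log2 ratio of -0.21 with an unadjusted p of 0.199 in the authors' deposited table. The DNA-binding subunits HAP2, HAP3 and HAP5 lay above 0, HAP2 at 0.13, HAP3 at 0.22 and HAP5 at 0.13. HAP1, in the same list, lay at 0.02 on its longer model of 4248 bp and at -0.40 on its shorter one of 183 bp. Coenzyme Q synthesis had a median of -0.01 over 11 genes, with COQ6 at -0.24, COQ5 at -0.15 and COQ10 at -0.14. Heme synthesis had a median of 0.05 over 8 genes, with HEM1, its first enzyme, at 0.24, HEM13 at 0.16 and HEM3 at -0.16. HEM1 rests on the longer of its 2 models. The shorter one, of 552 bp, lay at -0.17, so the sign for this gene differs by model. CYB2, DLD1 and GUT2, which feed electrons from lactate and glycerol phosphate into the chain, lay at -0.29, -0.05 and 0.01. Among 6 carriers the median was -0.01, with 3 below 0 and 3 above. AAC1 and AAC3, minor ADP/ATP carriers with a reference FPKM of 23.4 and 14.6, lay at 0.22 and 0.19. PET9, the ADP/ATP carrier with the highest reference FPKM, 1042, lay at -0.09. MIR1, the phosphate carrier, lay at -0.16.

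The core subunits that the mitochondrial genome encodes gave almost no signal. OLI1, subunit 9 of ATP synthase, had an FPKM of 3.33 in the reference and 4.55 in the minimal glycolysis strain. ATP6 went from 3.64 in the reference to a listed 0, with p = 0.0171 and q = 0.998 in the authors' deposited table. For COX2 the table lists 0 in either strain, untested. The ATP6 and COX2 models are short, at 189 and 168 bp, and whether they span the whole genes was not checked. COX1, COX3, COB and ATP8 were not analysed here. Of the 7 mitochondrial subunits, 3 thus had a model, and these low values give no measure of how nuclear and mitochondrial subunits compare.

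The 38 genes were spread over 14 chromosomes. The nearest called or deleted model to any of them was 10780 bases away, DIP5 near ATP15 on chromosome 16, so no member adjoined a called gene or a deleted locus that has a model.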

How the data were processed

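RNA sequencing covered 2 libraries of each strain, grouped by the strain label. The submitters' processing notes name Cuffdiff, Cufflinks, SAMtools 0.1.7-r510, BWA 0.5.9-r16 and CASAVA 1.8.2 without their roles. The labels name the CEN.PK113-7D assembly as the genome used. Per the file headers, the deposited table holds an FPKM per gene model and strain, the authors' log2 ratio, p-value and q-value, and a test statistic (a score) and signed fold that were not used. The library kit, per the labels' protocols, does not mark strand, so reads of overlapping antisense genes cannot be told apart.

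A gene was called at the authors' q of at most 0.05. Pooled values allow no test between libraries. Log2 ratios were recomputed from the FPKM without a pseudocount and differed from the authors' by at most 6.91e-06. The longest model with a ratio was kept per systematic name, leaving 5329 genes. Symbols came from the R64 annotation, which matched all 39 members and 108 of 108 other listed genes, and no coordinate of it is printed. Coordinates are the table's, counted from 1. Lengths are mostly coding lengths, since 97.2% are multiples of 3. A fit of degree 3 polynomials in log10 mean FPKM and log10 length, over 5289 genes that were not called, took 12.8% of the variance of the log2 ratio. A test on simulated ratios used a linear trend in both, a form that the fit includes. That test therefore cannot show how well the fit suits these data. Python 3.11.15, numpy 2.4.6, pandas 2.3.3, scipy 1.17.1 and matplotlib 3.10.9 were used.

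All members are named, and of each other list any called gene and up to 3 genes by absolute log2 ratio with an FPKM of at least 10. HAP1, HAP5 and PET9 were added after their values were seen. Members and lists were chosen with earlier results of these data known. Planned comparisons of promoter motifs and of protein sequences were not run. Unused columns of per-sample values numbered 0.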

Additional observations from a re-analysis of the deposited data

How the results depend on the processing

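The table gives 1 pooled value per strain, so leaving out a replicate could not be run. No paired analysis was possible because the replicates have no columns of their own. None of the 38 members was called at a q of 0.01, at a change of at least 2-fold, with recomputed q-values or over all models, and 1 had an unadjusted p of at most 0.05. The medians of the set and of its complexes moved by less than 0.1 on the log2 scale under each alternative run. Most of these medians lay within 0.1 of 0 themselves, so this limit says little about their sign. The oxidase median went from 0.06 to -0.02 after the fit on level and length. Members below 0 went from 22 to 28 after the fit, and also with both strains rescaled to the same summed FPKM. Rescaling both strains to the same summed FPKM shifted the median of all genes by -0.06, and 6 members changed sign. Then 9 of the 12 ATP synthase genes and 4 of 4 of succinate dehydrogenase lay below 0, against 7 and 3 before. The share of all genes below 0 after rescaling was not computed. With 5 FPKM added, or after the fit on level and length, the log2 change of the NDE2 to NDE1 ratio was 0.25, against 0.10. Leaving out models under 300 bp in the summed FPKM, chosen after seeing the data, moved no log2 ratio of sums by 0.1. That of the bc1 complex changed sign, from 0.01 to -0.02. Levels of short models and of genes at low FPKM limit what can be compared between subunits.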
